A study of Rattus norvegicus with 287 samples.

Results

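Whole blood of lean Zucker rats was compared after 7 weeks of focused ultrasound (pFUS) or sham stimulation. The comparison rests on 10 of the 287 RNA-sequencing libraries of the study, 5 from pFUS rats and 5 from controls, and covers every gene that passed a filter on low counts. It holds every library whose title names lean Zucker blood at 7 weeks with either treatment. Ultrasound was aimed at the porta hepatis, the gateway of vessels and nerves into the liver, for 3 minutes per session at 1.1 MHz, with 200 mV per pulse, 150 burst cycles and a burst period of 500 µs. Control rats received the same handling with no energy applied. Both groups were anaesthetised with isoflurane at each treatment, all rats were male, and their age is not given in the labels used here. The obese ZDF rats of the same 7-week cohort, also 5 pFUS and 5 control blood libraries, served as the comparison strain. Lean Zucker rats are the lean counterparts of obese Zucker-derived rats, in which the leptin receptor is defective. The labels number the libraries without saying that each came from a separate rat, so p-values measure the spread between these libraries.

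Most RNA in whole blood comes from reticulocytes, young red cells that have lost their nucleus but still carry messenger RNA for haemoglobin. Alas2 encodes the erythroid form of the enzyme that starts haem synthesis, and serves as a marker of such cells. White cells and platelets supply the rest, so a gene's level in bulk blood moves with the mix of cells. Fewer cells of a type and less RNA per cell cannot be told apart in these data. The liver nerve plexus that the treatment targets carries metabolic and inflammatory signals, and blood was collected along with other tissues.

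The 10 lean libraries held 14542715 to 36498514 counts. Haemoglobin genes took 84.7% to 92.0% of them, which left 1321826 to 4456982 counts for all other genes. Blood identity was checked with Alas2, at 2680 to 3699 CPM (counts scaled to libraries of 1 common size) of all counts in the 10 libraries, and with the red-cell, white-cell and platelet genes described below, all present. None of the 45 pairs of lean libraries was a duplicate: 0 were identical, and counts of every pair differed by more than sampling noise (chi-square over its degrees of freedom of 5.48 or more).

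Libraries labelled control 12, pFUS 18 and pFUS 19 stood apart from their groups. Control 12 and pFUS 18 had the fewest genes with a count, 10672 and 11526, against 11937 to 13478 in the other lean libraries. Their TMM factors, which scale each library on the bulk of its genes, were 0.41 and 0.43, against 0.71 to 1.59 elsewhere. On that scale their haemoglobin genes therefore stood high, while their shares of all counts were 90.9% and 92.0%, next to 90.5% in control 14.

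The library labelled pFUS 19 read like obese blood at many genes. Among genes at least 2-fold higher in obese than in lean control blood, with no overlap of the control libraries, 111 of 130 were nearer the obese control mean in pFUS 19, against 11 to 37 in the other 4 lean pFUS libraries and 111 to 125 in the obese pFUS libraries. At the genes lower in obese controls, 25 of 34 were on the obese side in pFUS 19, against 6 to 10 in the other lean pFUS libraries. The choice used every obese control, so genes at which obese control 5 overlapped the lean controls could not enter. That library had 111 of 130 and 24 of 34 on the obese side. Fbln1, which encodes the matrix protein fibulin-1, was at 12.2 CPM of all counts in pFUS 19 and at most 1.02 in the other lean libraries. AABR07029275.1, an unnamed gene model chosen after its values were seen, was at 2.74 CPM there, against 0.24 to 7.86 in obese blood and 8.03 to 24.3 in the other lean libraries. Other genes that separate the strains were far from the obese level there: Ifit1 was at 1.5 CPM, Xpo7 at 19.7 and Tmcc2 at 149, against 0 to 4.32, 7.58 to 12.2 and 167 to 216 in the other lean libraries and 56.2 to 284, 135 to 300.3 and 1839 to 2881 in the obese ones other than control 5. In liver, brain, intestine and muscle, the lean pFUS libraries with the number 19 had AABR07029275.1 at 24.9, 51.9, 50.1 and 10.8 CPM. The obese control libraries with the number 5 had it at 0.32, 0.74, 47.7 and 0.47 CPM in the same order. In intestine lean control 14 was at 1.10 CPM and obese control 5 at 47.7, so this gene did not follow the labels in that tissue. Whether the intestine labels are right was not tested. Obese control 5 blood also stood apart, with Ifit1 at 1.6 CPM, Xpo7 at 15.7 and Tmcc2 at 153. These genes were chosen after the data were seen. The library labelled pFUS 19 thus went against its strain label at some genes and not at others, so its identity, and that of obese control 5, is in doubt. Whether samples were exchanged was not tested, and the labels were kept as given. The main counts and lists are also given without these libraries, or without control 12 and pFUS 18, where that moved them.

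**Figure D1:**
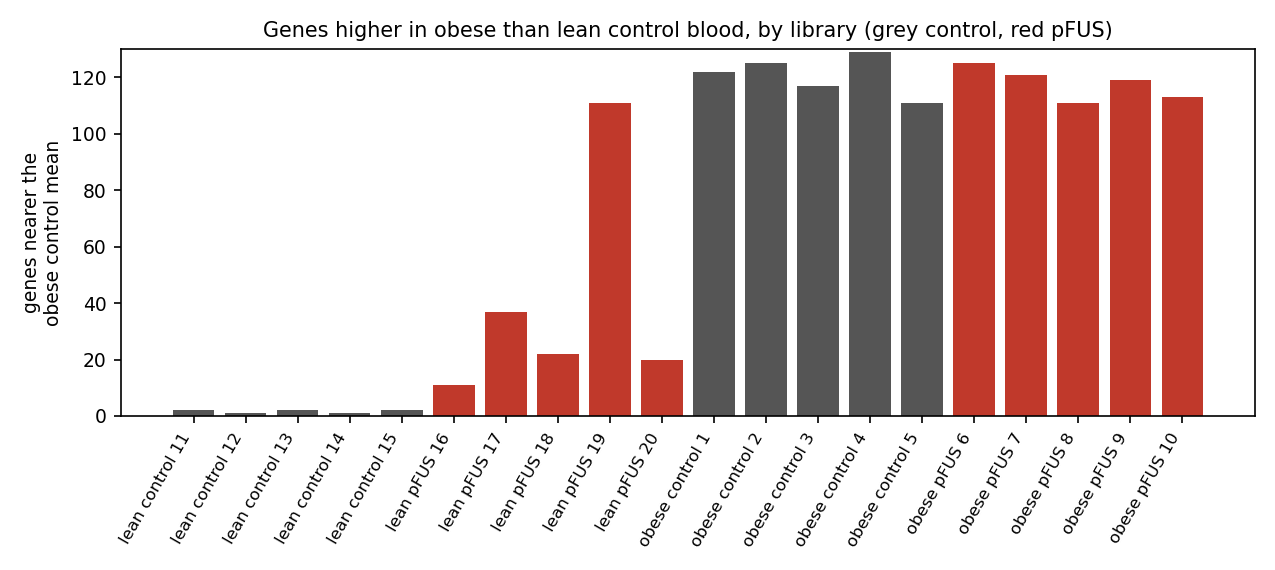
Number of genes (y axis, of 130 that were at least 2-fold higher in obese than lean control blood without overlap) whose level was nearer the obese than the lean control mean, for each of 20 blood libraries (x axis; grey control, red pFUS). The control libraries, obese control 5 among them, chose the genes, so only the pFUS bars had no part in the choice. Genes at which obese control 5 overlapped the lean controls could not enter. The lean pFUS library 19 stands at 111 and the other 4 at 11 to 37.

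No gene in lean blood passed the threshold for pFUS against control. Of 32623 genes deposited, 9400 were tested, and 0 (0%) had a Benjamini-Hochberg adjusted p under 0.05 in edgeR's quasi-likelihood test, the smallest being 0.9998. At an unadjusted p under 0.05 there were 265 genes (2.82%), 160 of them higher with pFUS (1.7%) and 105 lower (1.12%). Fold changes centred on 0, with a median log2 value of 0.01 and 4794 genes (51%) above 0. The middle 90% of log2 fold changes lay between -0.41 and 0.47.

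The error behind these fold changes was small enough to bound most genes. The median standard error (SE) was 0.25 on the log2 scale. For 7392 genes (78.6%) the 95% interval of the log2 fold change lay inside -1 to 1, so a 2-fold change was outside it. Among the 2292 genes with a mean of at least 5 CPM in a lean group, the share was 86.2%, with a median SE of 0.20. These intervals are per gene and not adjusted for the number of genes. The share was lower in the red-cell, neutrophil and platelet lists, as given below.

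At an unadjusted p under 0.05 limma voom gave 278 of 9400 genes, and DESeq2, which tested more genes, 308 of 16517. With haemoglobin genes taken out of library sizes and scaling factors, 0 genes passed the threshold and 266 had an unadjusted p under 0.05. Without pFUS 19 the counts were 0 and 208, without control 12 and pFUS 18 they were 0 and 317, and without all 3 they were 0 and 209. DESeq2 called 2 genes at the adjusted threshold, named after their values were seen: AABR07061378.1 and LOC100910130, both unnamed models with 0 counts in all 5 lean controls. AABR07061378.1 had 35, 104 and 116 counts in pFUS 16, 18 and 19 and 0 in pFUS 17 and 20. LOC100910130 had 87 and 88 counts in pFUS 17 and 20 and 0 in the other 3 pFUS libraries. In both genes the lean pFUS libraries were split between those with counts and those with 0, and their values overlapped the lean controls at 0. Obese blood was split as well. AABR07061378.1 had 240 and 83 counts in obese controls 1 and 5 and 223 and 186 in obese pFUS 6 and 9. LOC100910130 had 177 counts in obese pFUS 7. All other obese libraries had 0 counts of the gene in question.

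After TMM scaling, libraries of the 2 groups did not overlap at 24 genes higher with pFUS (0.255%) and 29 lower (0.309%). With a usable symbol and a mean of at least 5 CPM in a lean group, 2 genes were higher and 2 lower, and these 4 are described although none passed the threshold. As CPM of all counts the groups overlapped at each of the 4. Ep400, for example, was at 2.82 to 9.04 in controls and 1.99 to 9.47 with pFUS on that scale. Levels from here on are CPM after TMM scaling unless another scale is named.

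Ep400, which encodes a chromatin-remodelling ATPase, had the smallest unadjusted p among them. It was at 6.59, 6.86, 7.53, 7.57 and 7.72 CPM in controls 11 to 15 and at 5.10, 5.95, 4.63, 6.09 and 5.94 CPM in pFUS 16 to 20. The lowest control thus lay above the highest pFUS library. The log2 fold change was -0.38 (SE 0.12, unadjusted p = 0.0053, edgeR), a difference of less than 2-fold across its whole 95% interval of -0.64 to -0.12. Over 20 alternative settings it ran from -0.41 to -0.32.

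Trip12, a ubiquitin ligase gene, was at 9.82 to 12.7 CPM in controls and 7.99 to 9.64 CPM with pFUS, with a log2 fold change of -0.25 (SE 0.13, unadjusted p = 0.060, edgeR). Cyba encodes the p22-phox subunit of the phagocyte oxidase, which makes superoxide against microbes. Its levels were 8.49, 8.03, 7.70, 7.92 and 8.35 CPM in controls 11 to 15 and 9.38, 13.0, 9.15, 12.1 and 9.66 CPM in pFUS 16 to 20. The 2 highest values were in pFUS 17 and 19, the libraries that also led the neutrophil genes below. The log2 fold change of Cyba was 0.40 (SE 0.15, unadjusted p = 0.015, edgeR), and 0.35 (unadjusted p = 0.040) without pFUS 19. Tox4, a nuclear protein gene, was at 4.39 to 5.35 CPM in controls and 5.38 to 5.73 CPM with pFUS, a log2 difference of 0.15 (SE 0.11).

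**Figure D2:**
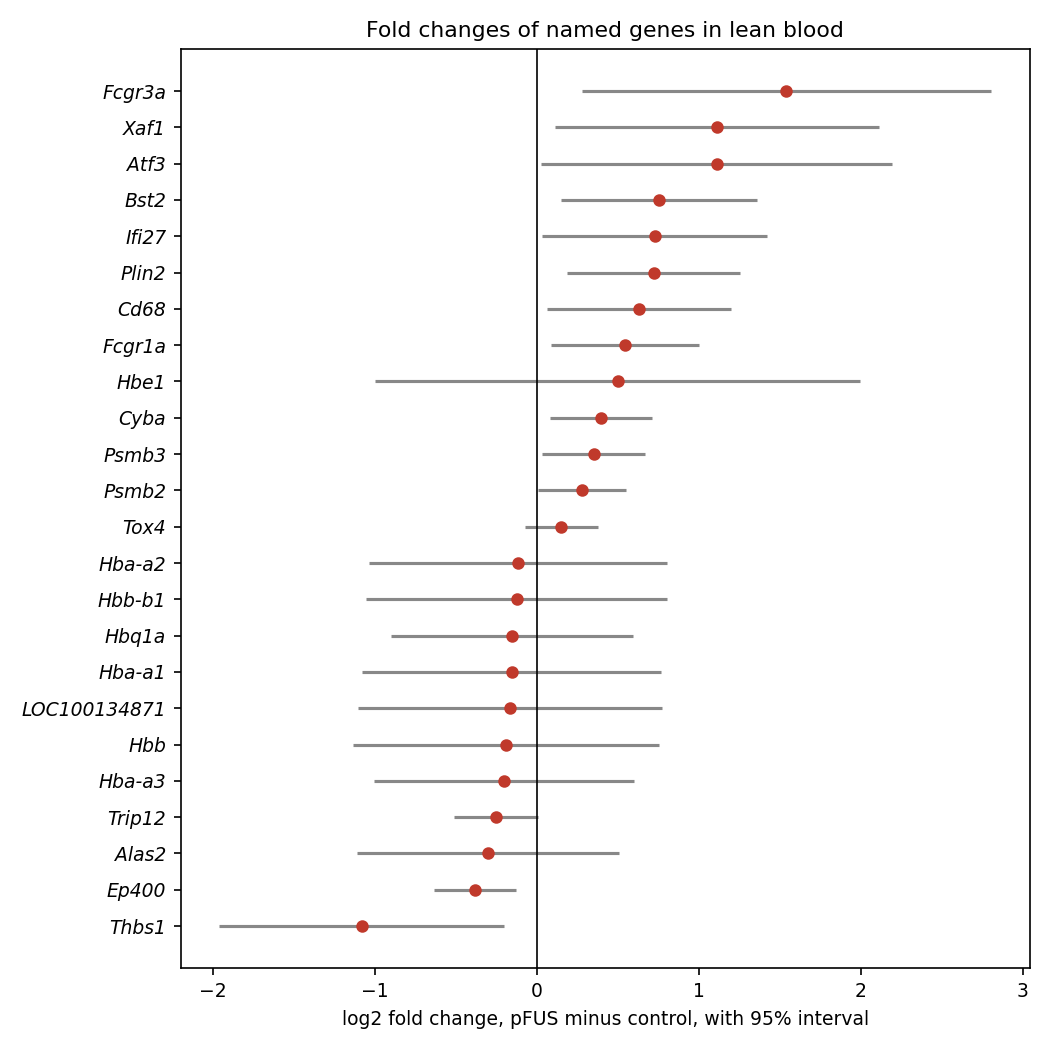
Log2 fold change of pFUS against control in lean blood (x axis) with its 95% interval, for the haemoglobin genes and Alas2, the 4 genes without overlap, and list members with an unadjusted p under 0.05 except Alb (y axis). No gene passed the adjusted threshold; the haemoglobin intervals span 0, and Thbs1, at -1.08, lies on the lower side while Fcgr3a, at 1.54, lies on the higher.

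Red-cell genes did not separate the groups. Haemoglobin genes made up 86.8%, 90.9%, 88.8%, 90.5% and 87.8% of counts in controls 11 to 15, and 88.8%, 84.7%, 92.0%, 88.1% and 88.2% in pFUS 16 to 20. The lowest and the highest share both belonged to pFUS libraries. Means were 88.9% ± 1.75 (SD, n = 5) and 88.4% ± 2.58 (SD, n = 5), a difference of -0.59 percentage points with p = 0.675 in an exact two-sided permutation test. With 252 possible splits the smallest p that test can give is 0.0079. The size of the difference turned on single libraries of both groups. It was 0.32 points without pFUS 17, -1.50 without pFUS 18, -0.10 without control 12, -0.21 without control 14 and -1.14 without control 11. Without control 12 and pFUS 18 it was -1.01, and without pFUS 19 as well -1.21.

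Alas2 was flat on the scale of all counts and variable on the TMM scale. As CPM of all counts it was at 3129, 3335, 3523, 3462 and 3699 in controls and 3582, 3159, 2680, 3191 and 3390 with pFUS, means of 3430 ± 213 and 3200.2 ± 337 (SD, n = 5 each). The exact two-sided permutation test gave p = 0.238 for that difference, and p = 0.865 after adjustment over 7 library measures. After TMM scaling the same gene ranged from 2281 to 8115 CPM in controls and from 1985 to 6245 CPM with pFUS, with the highest values in control 12 and pFUS 18. Its log2 fold change there was -0.30 (SE 0.39, unadjusted p = 0.449, edgeR), with an interval of -1.11 to 0.51, and it crossed 0 in 1 of 20 alternative settings.

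**Figure D3:**
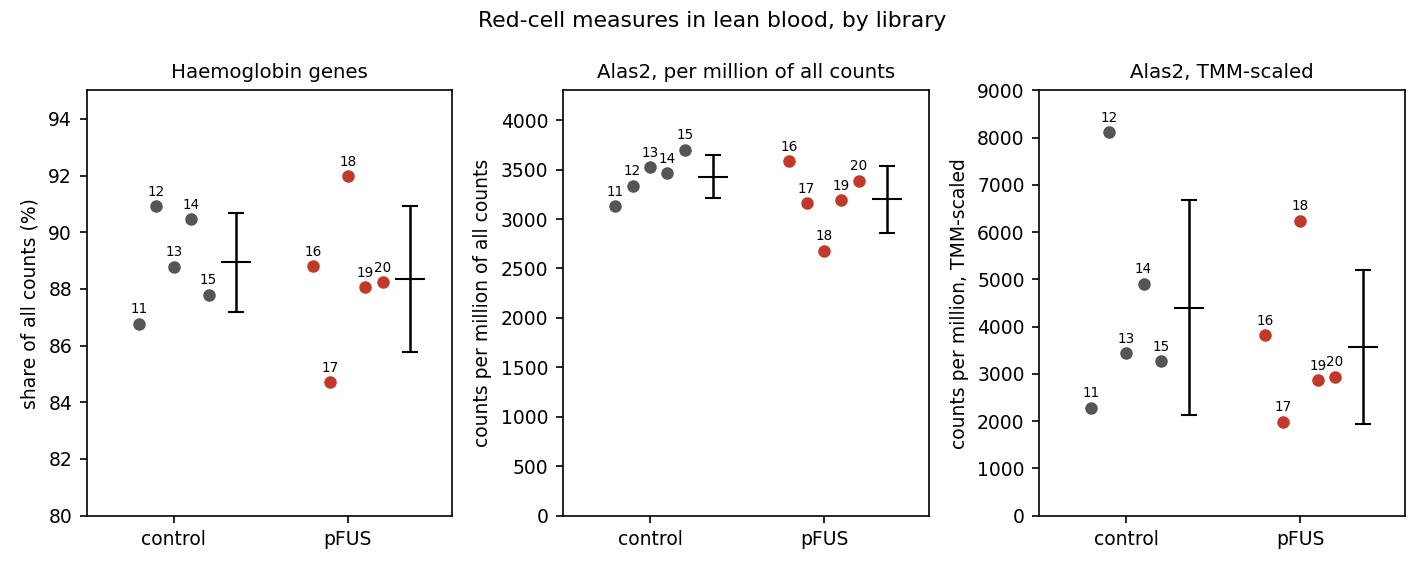
Haemoglobin share of all counts (left, axis from 80% to 95%), Alas2 as CPM of all counts (middle) and Alas2 after TMM scaling (right), one numbered point per lean library, with the mean and SD (n = 5) beside each group. The groups overlap on all 3 measures, and control 12 and pFUS 18 stand high only on the TMM scale and, less so, for the haemoglobin share.

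Among the globin genes Hba-a1 took the largest share, 35.2% ± 1.39 of counts in controls and 35.1% ± 2.97 with pFUS (SD, n = 5 each). Hbb followed with 18.7% ± 1.57 and 18.1% ± 3.16, LOC100134871, counted here among the haemoglobin genes, with 16.3% ± 0.93 and 16.0% ± 2.09, Hba-a2 with 12.8% ± 0.63 and 13.2% ± 1.15, and Hbb-b1 with 5.63% ± 0.37 and 5.64% ± 0.59. Near-identical copies of these genes share reads, so how counts were divided among them is uncertain. Log2 fold changes after TMM scaling were -0.15 for Hba-a1, -0.19 for Hbb, -0.16 for LOC100134871, -0.11 for Hba-a2 and -0.12 for Hbb-b1, each with an SE between 0.44 and 0.46. Hba-a3 and the theta-type Hbq1a were at -0.20 (SE 0.39) and -0.15 (SE 0.36), and the embryonic Hbe1, under 2 CPM in every lean library, at 0.50 (SE 0.72). Every one of these intervals included 0. Among the 7 listed haemoglobin chains, which leave out Hbq1a, 0 intervals lay within 2-fold, so a 2-fold change was not excluded for any. Their median was -0.15 with 1 above 0, and without control 12 it was 0.24 with 7 above 0. Without pFUS 17 it was 0.03, and without pFUS 18 it was -0.58.

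Other red-cell lists held 0 members past the threshold, and the sign of their medians turned on control 12. Of 19 genes of haem synthesis and iron uptake tested, 15 were below 0 with a median log2 fold change of -0.08, against 0.01 over all genes. For 21 membrane and surface genes the figures were 17 and -0.27, and for 35 erythroid transcription and maturation genes 29 and -0.17. None of these 75 had an unadjusted p under 0.05, against 2.82% of all genes. Intervals lay within 2-fold for 9 of 19, 4 of 21 and 17 of 35 in that order, against 78.6% of all genes. Epb41, for protein 4.1 of the membrane skeleton, was at 171 ± 106 CPM in controls and 108 ± 34.8 with pFUS, and Sptb, for erythroid beta-spectrin, at 211 ± 121 and 141 ± 53.9 (SD, n = 5 each). Control 12 alone held the highest value of both, 356 and 422 CPM, and was the highest of the 10 libraries at 27 of the 35 maturation genes. Without control 12 the median of the haem and iron genes was 0.11, with 15 of 19 above 0. The membrane median was then 0.17, with 13 of 21 above 0, and that of the maturation genes 0.21, with 27 of 35 above 0. In that order the 3 medians were -0.12, -0.05 and -0.12 without control 12 and pFUS 18, -0.33, -0.44 and -0.49 without pFUS 18 alone, and -0.04, -0.11 and -0.06 without pFUS 17 alone.

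White-cell lists showed no member past the threshold, and the spread lay in single pFUS libraries. Of 18 neutrophil genes tested, 17 were above 0 and 4 had intervals within 2-fold. The median log2 fold change was 0.38, and 0 of the 18 had an unadjusted p under 0.05. Their summed level was 77.4 to 120 CPM in controls and 58.1 to 205 CPM with pFUS, so the pFUS libraries enclosed the controls. The library pFUS 17 was the highest of 10 at 10 of the 18 genes and pFUS 19 at 7, while pFUS 18 had the lowest sum of all. Trem1, an amplifying receptor of neutrophils and monocytes, was at 1.99, 2.51, 2.47, 1.56 and 1.94 CPM in controls and 2.26, 3.06, 1.18, 3.26 and 3.03 with pFUS. Mmp9, the neutrophil gelatinase, was at 1.42 to 2.68 CPM in controls and 1.29 to 4.74 with pFUS. Without pFUS 17 the list's median was 0.21 and 12 of 18 were above 0, and without control 12 and pFUS 18 it was 0.63, with 18 of 18 above 0 and 2 at an unadjusted p under 0.05. Defining granule genes of immature neutrophils were at or near 0: Mpo, Ctsg and Prtn3 had 0 counts in 9 of 10 lean libraries and Ltf in all 10.

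Monocyte and macrophage genes had 12 of 15 members above 0 and a median of 0.36, and 2 had an unadjusted p under 0.05. Fcgr1a, a high-affinity receptor for IgG, was at 5.16, 5.52, 5.53, 4.46 and 3.53 CPM in controls and 6.31, 10.1, 4.31, 9.49 and 4.45 with pFUS, a log2 fold change of 0.55 (SE 0.22, unadjusted p = 0.022, edgeR). Cd68, a lysosomal glycoprotein of phagocytes, was at 3.68 to 6.83 CPM in controls and 6.72, 10.7, 3.88, 14.8 and 8.75 with pFUS, at 0.63 (SE 0.27, unadjusted p = 0.031, edgeR). In both genes pFUS 17 and 19 were highest. Also above every control were pFUS 16 for Fcgr1a, at 6.31 against at most 5.53, and pFUS 20 for Cd68, at 8.75 against at most 6.83. The remaining pFUS libraries lay among the controls. Without pFUS 19 the fold changes were 0.41 (unadjusted p = 0.080) and 0.39 (unadjusted p = 0.155), the list's median was 0.13, and 0 members had an unadjusted p under 0.05. Without pFUS 18 the median was 0.50 and 6 members had one.

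Lymphocyte genes lay close to 0. Of 17 B-lymphocyte genes, 10 were above 0 with a median of 0.01, and all 17 intervals lay within 2-fold. Of 20 T-lymphocyte genes, 11 were above 0 with a median of 0.05, and 19 intervals lay within 2-fold. Cd8a, the co-receptor of cytotoxic T cells, was at 16.5 ± 1.97 and 19.7 ± 4.69 CPM in controls and pFUS (SD, n = 5 each). Of 15 NK and cytotoxic genes 13 were above 0, with a median of 0.14. In that list Fcgr3a, an activating Fc receptor, was at 0.17 to 0.51 CPM in controls and 0.41, 0.68, 0.75, 3.40 and 0.46 with pFUS. Its log2 fold change of 1.54 (SE 0.61, unadjusted p = 0.019, edgeR) was 0.55 (unadjusted p = 0.228) without pFUS 19. Ccl5, a chemokine of cytotoxic lymphocytes and platelets, was at 17.7 ± 4.15 and 23.8 ± 4.95 CPM (SD, n = 5 each).

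Only 5 of the genes listed for eosinophils, basophils and mast cells passed the filter, with 0 past the threshold. Cpa3, a mast-cell and basophil protease, was at 0.15, 0.17, 2.21, 1.56 and 1.26 CPM in controls and 0.70, 0.14, 6.46, 0 and 6.78 with pFUS, with both extremes in the pFUS group.

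**Figure D4:**
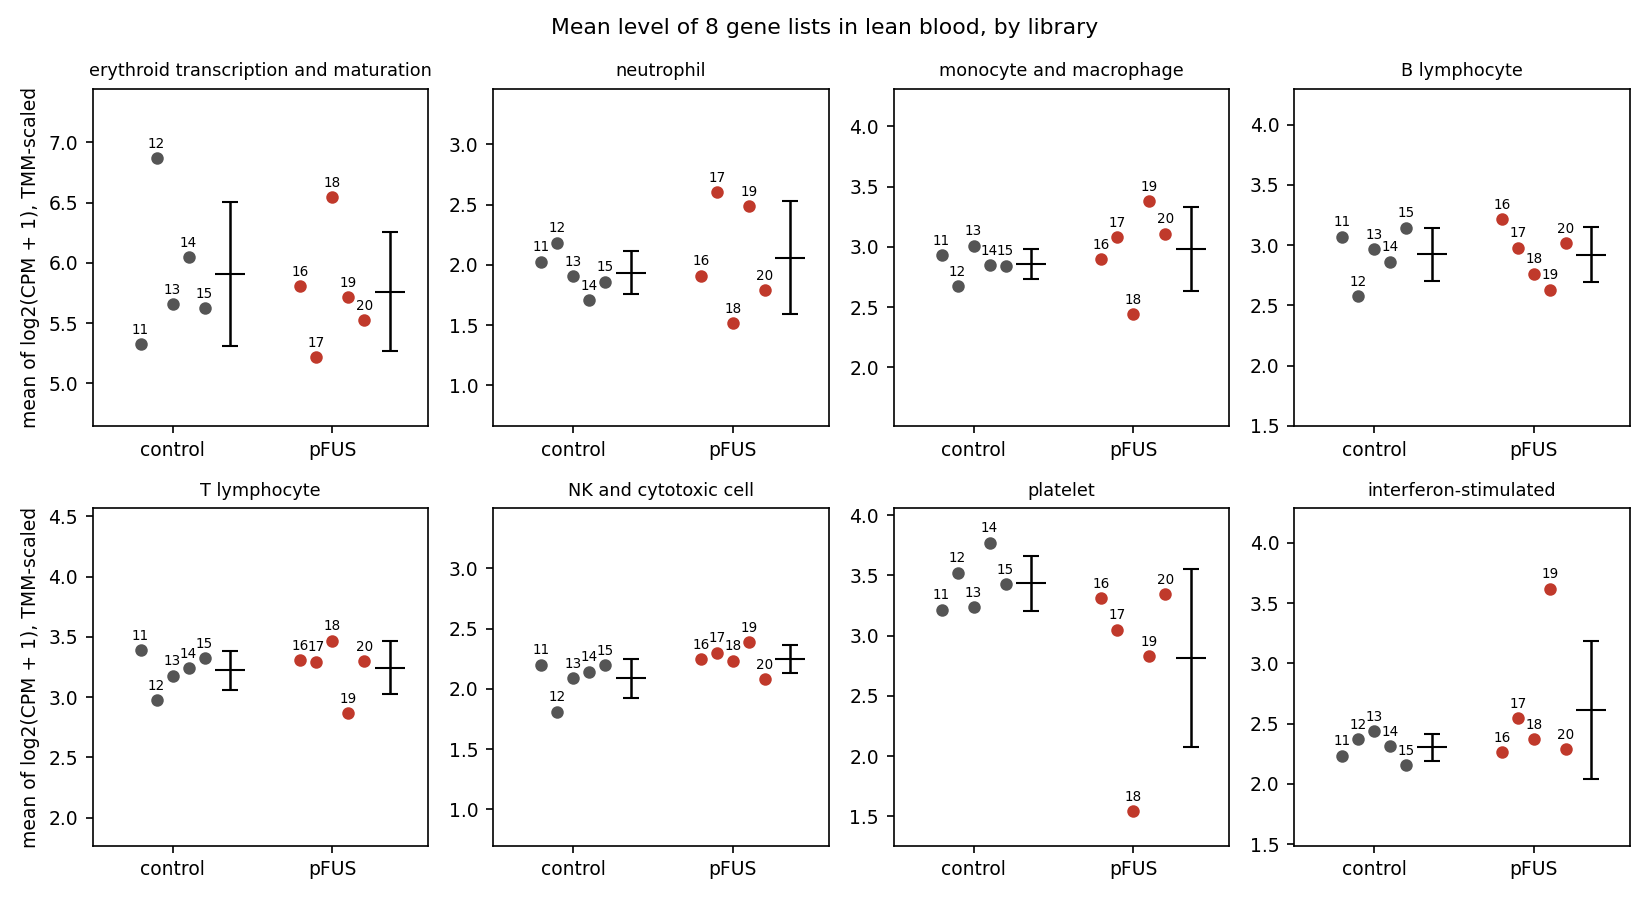
Mean of log2(CPM + 1) over the tested members of 8 gene lists (y axis, TMM-scaled, each panel spanning the same range of 2.8) in the 5 control and 5 pFUS lean libraries (x axis, numbered points), with the mean and SD (n = 5) at the right of each group. The groups overlap in every panel, with pFUS 18 lowest for platelets at 1.54, pFUS 17 and 19 highest for neutrophils, and pFUS 19 alone at 3.62 for interferon-stimulated genes.

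Platelet genes lay mostly below 0, with 0 members past the threshold. Of 19 tested, 1 had its interval within 2-fold and 18 were below 0, with a median log2 fold change of -0.57. Their summed level was 383, 496, 358, 628 and 450 CPM in controls 11 to 15 and 416, 357, 75.9, 256 and 374 CPM in pFUS 16 to 20. The library pFUS 18 was thus far below all others, and pFUS 19 also lay below every control. The sum in pFUS 17 was level with the lowest control, 357 against 358 CPM, and pFUS 16 and 20 lay among the controls. Thbs1, for thrombospondin-1 of the platelet granules, was the only member with an unadjusted p under 0.05. It was at 2.61, 3.18, 2.64, 3.82 and 3.31 CPM in controls and 1.51, 1.64, 0, 1.72 and 1.80 with pFUS, with no overlap on the TMM scale. As CPM of all counts the groups overlapped, at 1.31 to 3.75 in controls and 0 to 2.61 with pFUS. The log2 fold change of Thbs1 was -1.08 (SE 0.42, unadjusted p = 0.019, edgeR). Without pFUS 19 it was -1.14 (unadjusted p = 0.024), and over the alternatives it ran from -1.19 to -0.86. Itgb3, the beta chain of the fibrinogen receptor, was at 6.62 ± 1.02 CPM in controls and 3.81 ± 2.14 with pFUS (SD, n = 5 each), a log2 difference of -0.73 (SE 0.41). Without pFUS 18 the list's median was -0.37. Without control 12 as well it was -0.30, with 3 of 19 above 0, and without pFUS 19 as well it was -0.24.

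Interferon-stimulated genes encode antiviral proteins that cells make in response to type I interferon. The factors it activates bind a promoter element whose core repeats GAAA. In lean blood 32 of the 35 members tested were above 0, the median log2 fold change was 0.61, 4 had an unadjusted p under 0.05, and 0 passed the threshold. The 3 with the smallest unadjusted p were Bst2, Xaf1 and Ifi27. Their promoters are shown because these genes read together in a single library, as described below. Each run is the 250 bases before the gene's start in RefSeq (GRCr8), 5′ to 3′ on the gene's strand, with matches to GAAA, any 2 bases, GAAA on either strand in capitals, overlapping matches joined.
Bst2, chr16:18254968-18255217, minus strand: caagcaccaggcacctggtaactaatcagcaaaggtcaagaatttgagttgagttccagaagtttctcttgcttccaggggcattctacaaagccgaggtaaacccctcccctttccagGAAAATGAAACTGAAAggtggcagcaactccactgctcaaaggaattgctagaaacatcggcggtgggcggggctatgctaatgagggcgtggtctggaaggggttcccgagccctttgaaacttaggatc
Xaf1, chr10:57415685-57415934, plus strand: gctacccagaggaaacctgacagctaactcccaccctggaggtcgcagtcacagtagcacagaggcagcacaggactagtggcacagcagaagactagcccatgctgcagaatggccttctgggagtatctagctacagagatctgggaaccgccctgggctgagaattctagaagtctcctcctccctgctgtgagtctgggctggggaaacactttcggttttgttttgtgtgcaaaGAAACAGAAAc
Ifi27, chr6:128355062-128355311, plus strand: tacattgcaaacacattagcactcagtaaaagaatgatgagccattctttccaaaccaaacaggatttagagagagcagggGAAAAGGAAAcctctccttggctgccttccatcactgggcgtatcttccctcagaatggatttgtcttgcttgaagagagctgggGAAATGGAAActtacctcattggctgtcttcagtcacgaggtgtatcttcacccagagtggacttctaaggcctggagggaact
The pattern was found in the promoter of 15 of the 24 interferon-stimulated genes tested that could be matched by symbol, and in 3.41% of all 33469 promoter windows of that length. A match describes the letters and does not show binding.

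Bst2 encodes tetherin, which holds budding virus particles on the cell. It was at 2.37, 1.34, 2.77, 2.05 and 2.01 CPM in controls and 2.61, 3.49, 1.94, 6.60 and 3.46 with pFUS, a log2 fold change of 0.76 (SE 0.29, unadjusted p = 0.017, edgeR). Xaf1, a pro-apoptotic partner of XIAP, was at 0.17 to 0.50 CPM in controls and 0.41, 0.89, 0.54, 2.05 and 0.46 with pFUS, at 1.11 (SE 0.48, unadjusted p = 0.031, edgeR). Ifi27, a mitochondrial interferon-induced protein gene, was at 8.32 to 12.1 CPM in controls and 12.7, 9.37, 12.1, 36.9 and 11.1 with pFUS, at 0.73 (SE 0.33, unadjusted p = 0.040, edgeR). In all 3 genes pFUS 19 was the highest library.

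That library held the highest level of the 10 at 31 of the 35 members. Its mean log2(CPM + 1) over the list was 3.62, against 2.26 to 2.54 in the other pFUS libraries and 2.16 to 2.44 in controls. Relative to the control mean, 23 of 35 members were more than 1 higher on that scale in pFUS 19, against 0 to 3 members in the other 9 lean libraries. Isg15, a ubiquitin-like modifier, was at 21.4 CPM in pFUS 19 and 1.04 to 3.88 elsewhere, and Mx2, a dynamin-like antiviral gene, at 15.0 and 0.335 to 1.77 (both chosen after their values were seen). Without pFUS 19 the median of the list was 0.16, 26 of 35 were above 0 and 0 had an unadjusted p under 0.05. Bst2 was then at 0.44 (unadjusted p = 0.105), Xaf1 at 0.56 (unadjusted p = 0.217) and Ifi27 at 0.19 (unadjusted p = 0.465).

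**Figure D5:**
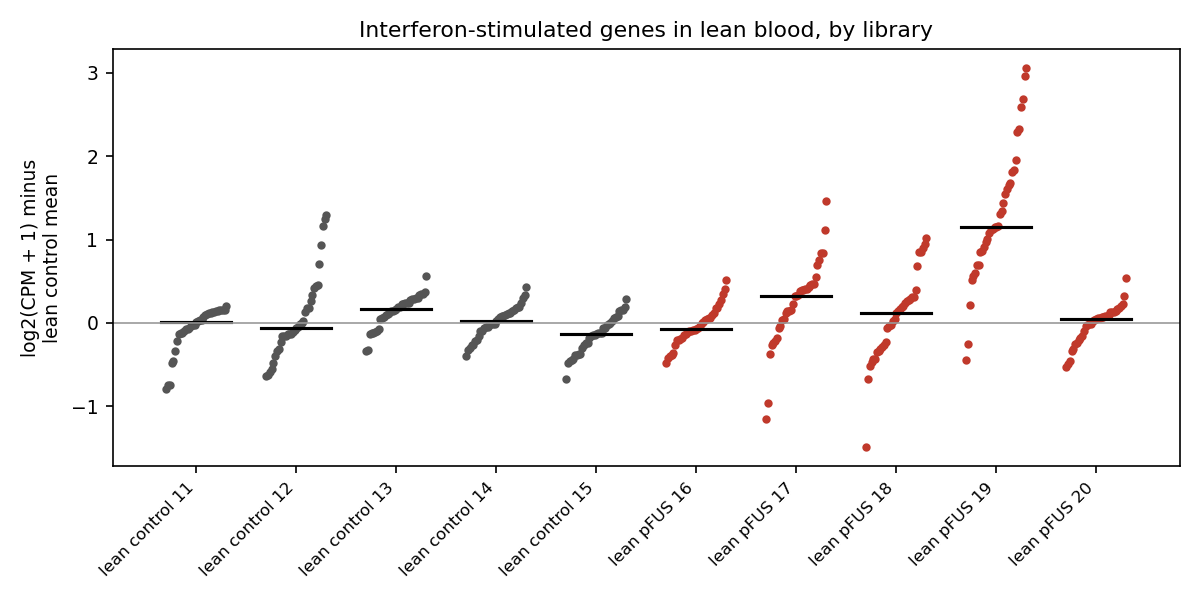
Log2(CPM + 1) minus the lean control mean (y axis, TMM-scaled) for each of 35 interferon-stimulated genes (points, sorted within a library) in the 10 lean blood libraries (x axis; grey control, red pFUS), with the median as a black bar. The median of pFUS 19 is 1.16, and those of the other 9 libraries lie between -0.14 and 0.32.

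Metabolic and stress genes also held 0 members past the threshold. Plin2 encodes perilipin-2, which coats lipid droplets. It was at 2.87, 1.34, 2.47, 2.62 and 2.93 CPM in controls and 2.95, 4.97, 2.15, 7.44 and 3.17 with pFUS, a log2 fold change of 0.72 (SE 0.26, unadjusted p = 0.010, edgeR). Without pFUS 19 it was 0.42 (unadjusted p = 0.077). The other 27 fatty acid and glucose genes tested had unadjusted p of 0.0936 or more, and the list's median was 0.03.

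Of 21 immediate early and stress genes, 16 were above 0 with a median of 0.15, and Atf3, a stress-induced transcription factor gene under 1 CPM in every lean library, had an unadjusted p of 0.045 at 1.11 (SE 0.52). Hspa1b, an inducible heat-shock gene with a near-identical neighbour, had 0 counts in 4 of 5 controls and was at 0.12, 0.39, 0, 1.16 and 0.41 CPM with pFUS. Of 40 proteasome and ubiquitin genes, 26 were above 0 with a median of 0.06, and 39 intervals lay within 2-fold. Psmb3 and Psmb2, beta subunits of the proteasome core, were at 0.35 (SE 0.15, unadjusted p = 0.032, edgeR) and 0.28 (SE 0.13, unadjusted p = 0.046, edgeR).

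Genes tied to nerve, hormone and daily rhythm signals held 0 members past the threshold. Of 16 circadian clock genes, 11 were above 0 with a median of 0.04, and the smallest unadjusted p was 0.194, for Nr1d1, the clock repressor REV-ERB alpha, at 0.33 (SE 0.25). Of 15 glucocorticoid receptor targets, 6 were above 0 with a median of -0.13. Among them Ddit4, an inhibitor of mTORC1, was at 2.56 ± 0.65 and 1.99 ± 0.37 CPM, and Tsc22d3, which encodes GILZ, at 25.0 ± 4.40 and 20.4 ± 3.10 CPM in controls and pFUS (SD, n = 5 each). Only 6 of 20 listed neurotransmitter and adrenergic receptor and arrestin genes passed the filter. Of these 6, 3 were above 0 and the median was -0.17. Of 24 cytokine and NF-kB target genes, 16 were above 0 with a median of 0.18 and 0 had an unadjusted p under 0.05. Of 19 proliferation genes 10 were above 0 with a median of 0.03. Mki67, a marker of dividing cells, was at 27.4 CPM in control 12 and 5.89 to 9.27 in the other controls, and at 4.69 to 14.6 with pFUS.

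Most liver transcripts were close to absent. Of 12 hepatocyte genes listed, 2 passed the filter, Alb and Tf, both above 0. Tf, for transferrin, was at 26.9, 23.6, 35.2, 33.0 and 31.1 CPM in controls and 32.3, 46.4, 19.9, 47.5 and 47.9 with pFUS, a log2 fold change of 0.37 (SE 0.22, unadjusted p = 0.100, edgeR). Apoh had 0 counts in all 10 lean libraries, and Ttr, Fgb and Apoa1 were at most 0.14, 0.05 and 0.16 CPM of all counts. Alb, for serum albumin, was at 2.03 and 2.48 CPM in pFUS 16 and 18 and at most 0.17 in the other 8 lean libraries, with 0 counts in 2 controls and 1 pFUS library. Its fitted log2 fold change of 3.12 (SE 1.41, unadjusted p = 0.0395, edgeR) thus rested on 2 libraries. Traces of other hepatocyte genes also peaked in these 2 lean libraries, each at most 0.38 CPM of all counts. Fgb, Fgg, Apoa1, Apoc3 and Serpina1 were highest in pFUS 16, and Fga, Ttr and Cyp2e1 in pFUS 18. Mitochondrially encoded messages made up 3.28% ± 0.73 of the counts outside haemoglobin in controls and 3.51% ± 0.92 with pFUS (SD, n = 5 each), with p = 0.635 in an exact two-sided permutation test.

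Obese blood also had 0 genes past the threshold for pFUS against control (0%), with 882 at an unadjusted p under 0.05 (9.38%) and a smallest adjusted p of 0.345 in edgeR. There DESeq2 called 4 genes and limma voom 1. The difference between the obese and lean effects, tested as an interaction, was past the threshold at 0 genes (0%), with 339 at an unadjusted p under 0.05 (3.61%), while DESeq2 called 1 gene and limma voom 0. The 2 sets of fold changes share no library. Across the 9400 genes, which are not independent replicates, their Pearson correlation was 0.15 and 58.5% had the same sign. The haemoglobin share was 89.1% ± 1.36 in obese controls and 85.8% ± 2.33 in obese pFUS libraries (SD, n = 5 each), and whether that difference departs from the lean one was not tested. Ddit4 had the smallest unadjusted interaction p of all genes, 0.000203, with a log2 fold change of 0.77 (SE 0.17) in obese and -0.35 (SE 0.18) in lean blood and an adjusted p of 0.9997 for the difference (edgeR). Interferon-stimulated genes had a median of -0.27 with 9 of 35 above 0 in obese blood, against 0.61 and 32 in lean blood. Without obese control 5 the obese median was 0.01 with 19 of 35 above 0, and without pFUS 19 the lean one was 0.16 with 26 of 35. Neutrophil genes had -0.42 with 3 of 18 above 0, against 0.38 and 17. Their summed level was 114 to 234 CPM in obese controls and 87.3 to 156 in obese pFUS libraries, so the obese groups overlapped. The lean neutrophil median was lower without pFUS 17, as given above. Whether these list medians differ between strains was not tested. Platelet genes were mostly below 0 in both strains, with medians of -0.53 in obese and -0.57 in lean blood and 0 and 1 of 19 above 0. Summed platelet levels were 66.2 to 584 CPM in obese controls and 95.3 to 393 in obese pFUS libraries, so the obese controls enclosed the obese pFUS libraries. The lean platelet median was nearer 0 without pFUS 18, as given above.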

How the data were processed

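Blood RNA was sequenced with a stranded mRNA kit, per the labels' protocols. The submitters' processing notes name STAR 2.5.3a, RSEM and the Rnor_6.0 build. For the gene annotation, the release was not given in the sources used here. What the authors deposited are expected counts per gene, as whole numbers with no normalization. Their counts per isoform were not used. RSEM divides reads among similar copies, which touches the globin genes most.

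All 20 blood libraries (4 groups of 5) entered 1 edgeR 4.0.16 fit (R 4.3.3): TMM scaling, low genes removed by filterByExpr (minimum count 10), robust quasi-likelihood F tests, and Benjamini-Hochberg adjustment over 9400 genes at 0.05. Each SE was derived from the fold change and F. List levels used log2(CPM + 1). Library measures were compared by exact permutation. The compared groups and the 22 gene lists were chosen with earlier results of these data known. The mitochondrial list matched 0 symbols, so the file's own mitochondrial gene names were used. Genes were named by rule: up to 12 a direction with no overlap between groups, a mean of 5 CPM in a lean group and a usable symbol, the 3 smallest p of each list, Alas2, and the haemoglobin genes tested. Not all of them are printed, and genes outside the rule are named as list members or as chosen after their values were seen. Results for a few genes are not reported here.

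Alternatives were scaling without the 12 haemoglobin genes or without all red-cell lists, RLE factors, no filter, DESeq2 1.42.0, limma 3.58.1 voom with quality weights, only the groups compared, and leaving libraries out. Scripts were tested on simulated counts. Python 3.11.15 and matplotlib 3.10.9 were also used.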

Additional observations from a re-analysis of the deposited data

Results flagged for a closer look

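In a group of 5 libraries a value was picked out where the gap between the highest or lowest library and its neighbour exceeded 0.71 of the group's whole range. Of 194 tests of named genes, lists and library measures 20 (10.3%) met this. Chance gives about 1 in 20 only for independent values that follow a normal distribution. Gene levels were tested as CPM without logs, and items such as the haemoglobin genes vary together. The share therefore cannot be set against that rate, and whether it exceeds chance was not tested.

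Control 12 accounted for 8. It was the highest control for Epb41 (gap ratio 0.767), Sptb (0.796), Hbe1 (0.864), Mki67 (0.843) and Tns1 (0.729), and the lowest for Plin2 (0.711), the NK and cytotoxic list (0.714) and the immediate early and stress list (0.886).

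The library pFUS 18 accounted for 6. It was the highest for Hba-a1 (0.790), Hba-a2 (0.766), Hbb-b1 (0.793) and Uros (0.795), a gene of haem synthesis, and the lowest for Thbs1 (0.835) and the platelet list (0.716).

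The library labelled pFUS 19 accounted for 4. It was the highest for Fcgr3a (0.884), Ifi27 (0.877), Ctla2a (0.835), a gene of the platelet list, and the interferon-stimulated list (0.792).

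Control 13 was the only control with counts of Hspa1b (1.000). The library pFUS 17 was the highest for Socs3 (0.791), a feedback inhibitor of cytokine signalling.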

How the results depend on the processing

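No paired analysis was possible because the groups compared share no replicate numbers. The count of genes past the threshold in lean blood was 0 under every scaling, filter, voom and library setting tried, including the 3 left-out sets that follow from the libraries standing apart, 2 of them chosen after seeing the data. The exception was DESeq2 with 2 genes. Obese blood had 0 genes except 4 with DESeq2 and 1 with voom, and the obese minus lean difference had 0 except 1 with DESeq2, with the cause not tested. Leaving out each library in turn gave 0 to 0 genes past the threshold in all 3 comparisons, and, at an unadjusted p under 0.05, 201 to 456 in lean blood against 265 (456 without pFUS 18, 407 without pFUS 20), 557 to 1211 in obese blood against 882 (557 without obese control 2) and 273 to 579 for the difference against 339 (579 without control 12). Without the filter 485 of 16525 genes in lean blood and 618 for the difference had such a p. The difference in haemoglobin share ran from -1.50 to 0.32 percentage points when each library was left out, with 0.32 without pFUS 17. Of 72 named genes, 61 kept their sign in every setting that gave a value. A sign change counted as a reversal only where it moved the value by over 1 SE. That held for 3 genes when each library was left out. Socs3 ran from -0.11 (without pFUS 17) to 0.77, Mki67 from -0.85 to 0.047 and Hbq1a from -0.48 to 0.31 (the upper ends without control 12). Intervals lay within 2-fold for 78.6% of all genes and 86.2% of those with a mean of at least 5 CPM, and how much of this came from depth was not tested.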
